A study of Mus musculus with 8 samples.

Results

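The testes of wild-type (WT) male mice given lipopolysaccharide (LPS) were compared with those of WT male mice given vehicle (CTRL), by RNA sequencing of 2 LPS and 2 CTRL libraries. These 4 libraries were chosen by the group in their titles, out of 8 libraries in the series. LPS had been injected once into the peritoneum, and CTRL mice had received phosphate-buffered saline. The other 4 libraries, 2 of LPS+DHEA and 2 of LPS+DHEA+Nb, came from WT males that also received dehydroepiandrosterone (DHEA), or both DHEA and Nb23-bi, in an injection made 6 h later; they entered the model to estimate the spread, and their values are given only where they bear on a result. The sources used here give no strain, age, dose or time of tissue collection. Nor do they state that the libraries of a group came from separate animals, so the p-values measure the spread between these libraries, which may be technical.

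LPS is a component of the outer wall of Gram-negative bacteria that is sensed through Toll-like receptor 4, mainly on macrophages, endothelium and other somatic cells. In the testis it reaches an organ in which germ cells mature inside tubules, behind a barrier formed by Sertoli cells and outside which lie peritubular myoid cells, vessels, macrophages and the androgen-producing Leydig cells. Systemic inflammation is known to raise acute phase proteins, to change the handling of iron and copper, and to lower Leydig cell steroid synthesis.

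The libraries held 61.8 to 63.7 M counts in LPS and 63.6 to 64.5 M in CTRL. Values below are CPM, each gene's count relative to its library's total, with totals scaled by the trimmed mean of M values. The label testis was met by high germ cell and Leydig cell transcripts. The 12 germ cell markers summed to 16770 and 17480 CPM in LPS and 19180 and 19670 CPM in CTRL, and the Leydig hormone Insl3 stood at 544 and 575 CPM in LPS and 552 and 597 CPM in CTRL. Although the extraction protocol speaks of islets, no islet marker was examined. Of 12 epididymis markers, 9 were too low to test, with at most 10 counts in any of these 4 libraries. The list was not absent, and summed to 160 and 169 CPM in LPS and 201 and 182 CPM in CTRL. Most of this came from Cst8, at 156 and 164 CPM in LPS and 195 and 177 CPM in CTRL. Libraries of the LPS group correlated across genes at 0.97 (log CPM), those of the CTRL group at 0.9696, and LPS with CTRL libraries at 0.9662 to 0.9679, close to the values within groups.

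Of 26414 genes tested with edgeR's quasi-likelihood test, 78 passed an adjusted p of 0.05 (Benjamini-Hochberg), which is 0.295% of those tested. They were mostly higher in LPS: 68 genes rose (0.257%) and 10 fell (0.0379%). The median log2 fold change over all genes tested was -0.002. Both LPS libraries lay above both CTRL libraries in 18.9% of genes and below both in 18.1%, and these shares are the background for the counts of separated genes below. The calls depended on single libraries. Leaving out any 1 of the 8 gave 66 to 118 calls, the highest without LPS 1, and 34 of the 78 genes remained called without CTRL 1, 33 without CTRL 2, 56 without LPS 1 and 45 without LPS 2. Under the 19 alternatives tried, 24 of the 78 were called in every one. Fitted on the LPS and CTRL libraries alone, 73 genes were called, of which 46 were among the 78 (41 of the 68 higher and 5 of the 10 lower genes).

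**Figure D1:**
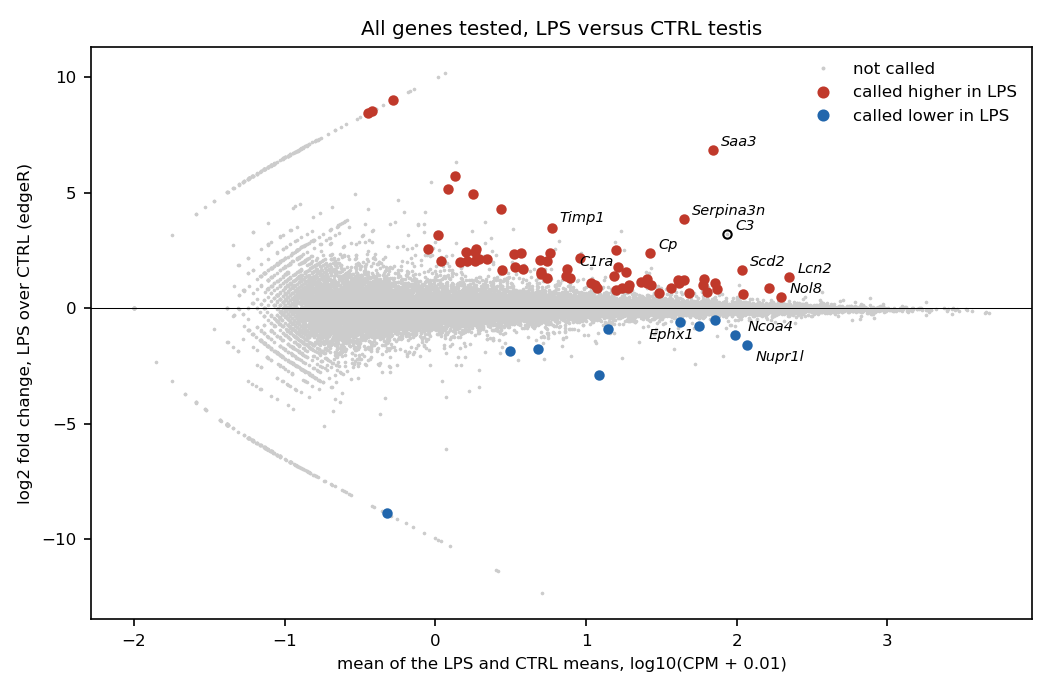
Fitted log2 fold change of LPS over CTRL against the mean level (log10 CPM) for each of the 26414 genes tested; red points passed the test as higher in LPS (68), blue points as lower (10), and the open circle is C3, which did not pass. Most called genes lie above the zero line, and the steep outer arms at the left are genes with 0 counts in 1 of the groups.

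Complement is a cascade of plasma proteins that marks microbes and damaged cells for removal. Its classical arm is started by C1, in which C1q binds the target and the proteases C1r and C1s cut the next components, and it is restrained by the C1 inhibitor. In LPS testis both C1 proteases and the C1 inhibitor were raised, while the recognition subunits were not called. C1ra, which encodes a C1r protease, had 25.5 and 29.4 CPM in LPS libraries, against 10.1 and 8.36 CPM in CTRL libraries. The groups did not overlap, and the difference passed the test (log2 fold change 1.57, SE 0.15, adjusted p = 0.000998, edgeR).

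C1s1, which encodes a C1s protease and lies on chromosome 6 beside C1ra, in the opposite orientation with 29954 bases between the gene starts, had 27.0 and 36.8 CPM in LPS libraries, against 15.4 and 13.6 CPM in CTRL libraries. It rose by a log2 fold change of 1.14 (SE 0.15, adjusted p = 0.0114, edgeR), with the groups apart and LPS 2 the higher of its group; without CTRL 2 the adjusted p was 0.0903. Serping1, which encodes the C1 inhibitor, had 50.5 and 62.4 CPM in LPS libraries, against 26.7 and 25.9 CPM in CTRL libraries. It rose by a log2 fold change of 1.101 (SE 0.15, adjusted p = 0.0133, edgeR), and its adjusted p was 0.097 without CTRL 1 and 0.12 without CTRL 2. The C1q chains, made mainly by macrophages, showed no such separation: C1qa had 12.7 and 12.2 CPM in LPS and 9.25 and 12.4 CPM in CTRL, and C1qb and C1qc had log2 fold changes of 0.07 and -0.15.

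The largest fitted rises among the cascade's central components were in C3 and Cfb, which were not called. The lowest log2 fold change among the 26 components tested was -6.41, and that gene was not called either. C3, the component on which all arms converge, had 135 and 176 CPM in LPS libraries, against 15.7 and 17.5 CPM in CTRL libraries. Its groups lay far apart, yet the adjusted p was 0.21 (log2 fold change 3.23, SE 0.49, edgeR). The model's spread came also from the LPS+DHEA+Nb libraries, where C3 stood at 53.0 and 21.9 CPM: without the first of these the adjusted p was 3.97e-06, without the second 5.04e-06, and with the LPS and CTRL libraries alone 0.000422. Cfb, the factor B of the alternative arm, had 26.4 and 34.5 CPM in LPS libraries, against 4.28 and 6.30 CPM in CTRL libraries (log2 fold change 2.52, SE 0.34, adjusted p = 0.0645, edgeR); with the LPS and CTRL libraries alone its adjusted p was 0.0077. DESeq2 and limma-voom called both genes. With all 8 libraries, edgeR without robust shrinkage also called both (adjusted p = 0.00937 for C3 and 0.0144 for Cfb).

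Of 26 complement components tested, 2 rose, none fell and 24 were not called; 9 were separated upward (34.6%) and 2 downward, and the median log2 fold change was 0.15, against -0.002 over all genes tested. Of 19 regulators and receptors, Serping1 alone was called, and the median was 0.02. Clu, an abundant Sertoli cell chaperone that also binds the terminal complement complex, had 869 and 890 CPM in LPS and 654 and 642 CPM in CTRL, but its adjusted p was 0.141 (log2 fold change 0.44, edgeR). C4b, a classical arm component, was not called either (33.3 and 46.2 CPM in LPS, 30.4 and 31.9 CPM in CTRL). None of 22 coagulation and fibrinolysis genes tested was called, and their median was 0.03.

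Type IV collagen is the network-forming collagen of basement membranes, which in the testis surround each tubule and each vessel. Its major chains, Col4a1 and Col4a2, were both higher in LPS. Col4a1 had 53.2 and 60.8 CPM in LPS libraries, against 22.5 and 25.6 CPM in CTRL libraries, and Col4a2 had 45.5 and 49.9 CPM in LPS libraries, against 24.4 and 27.1 CPM in CTRL libraries. The groups did not overlap for either gene. The log2 fold change was 1.24 for Col4a1 (SE 0.12, adjusted p = 0.000998) and 0.89 for Col4a2 (SE 0.10, adjusted p = 0.00266, edgeR), and both were called under every alternative tried.

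These genes lie head to head on chromosome 8, with annotated starts 21 bases apart, and their first exons overlap by 22 bases, so that reads from this stretch cannot be assigned to either without strand. The promoter window of Col4a2 (250 bases before to 50 after the start, RefSeq, GRCm38.p6, chr8:11312555-11312854, plus strand) therefore covers both starts. It is shown because both members that rose share it; capitals mark the stretch between the starts, both included.
Col4a2: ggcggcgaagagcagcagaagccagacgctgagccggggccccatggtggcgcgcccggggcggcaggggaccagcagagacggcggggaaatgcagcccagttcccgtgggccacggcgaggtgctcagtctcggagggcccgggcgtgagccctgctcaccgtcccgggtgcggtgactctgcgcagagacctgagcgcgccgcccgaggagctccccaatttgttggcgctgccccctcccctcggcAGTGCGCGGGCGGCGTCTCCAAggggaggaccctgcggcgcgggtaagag

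Other basement membrane genes lay above CTRL without passing the test. Lamc1, the common laminin gamma chain, had 14.9 and 12.3 CPM in LPS and 7.61 and 8.06 CPM in CTRL (adjusted p = 0.116, edgeR). Hspg2, which encodes perlecan, had 36.1 and 46.6 CPM in LPS and 24.2 and 30.4 CPM in CTRL (adjusted p = 0.184, edgeR). Of 36 structural matrix genes, all of them tested, 2 rose and 34 were not called. In 25 of them (69.4%) both LPS libraries were above both CTRL libraries, 3 were separated downward (Lama2, Tnc and Thbs1), and the median log2 fold change was 0.41.

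Among fibrillar collagens of interstitial matrix, Col1a1, Col3a1 and Col1a2 were high in LPS 2 in particular. Col1a1 had 24.3 and 52.4 CPM in LPS and 20.7 and 20.9 CPM in CTRL (log2 fold change 0.88, adjusted p = 0.788, edgeR). Col3a1 had 33.9 and 74.3 CPM in LPS and 26.2 and 25.7 CPM in CTRL, and Col1a2 had 36.0 and 70.7 CPM in LPS and 30.9 and 33.9 CPM in CTRL. In these 3 genes LPS 1 lay near the CTRL libraries, and LPS 2 stood well above it. Col5a2, a minor fibrillar collagen, was above CTRL in both LPS libraries, at 2.50 and 4.38 CPM in LPS and 0.959 and 1.16 CPM in CTRL (log2 fold change 1.70, adjusted p = 0.0906, edgeR).

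Among genes that cut or crosslink matrix, or inhibit its proteases, 3 of 24 tested rose, 16 were separated upward (66.7%) and none downward, with a median log2 fold change of 0.52. Timp1, an inhibitor of matrix metalloproteinases, had 10.64 and 10.99 CPM in LPS libraries, against 0.863 and 1.09 CPM in CTRL libraries. The groups were far apart (log2 fold change 3.46, SE 0.26, adjusted p = 0.000264, edgeR). Serpina3n, a serine protease inhibitor that is also an acute phase gene, had 74.8 and 92.2 CPM in LPS libraries, against 4.70 and 6.91 CPM in CTRL libraries (log2 fold change 3.85, SE 0.26, adjusted p = 0.00266, edgeR).

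Lox, the copper-dependent enzyme that crosslinks collagen and elastin, had 4.12 and 8.27 CPM in LPS libraries, against 1.26 and 1.06 CPM in CTRL libraries. It rose by a log2 fold change of 2.41 (SE 0.34, adjusted p = 0.0159, edgeR), with LPS 2 again the higher library; the adjusted p was 0.0654 without LPS 2, 0.081 without CTRL 1, 0.125 without CTRL 2 and 0.0596 with the LPS and CTRL libraries alone. The proteases themselves did not pass: Mmp14, a membrane-bound metalloproteinase, had 29.9 and 32.6 CPM in LPS and 19.96 and 23.01 CPM in CTRL (adjusted p = 0.098, edgeR), and Adamts1 had 4.96 and 5.87 CPM in LPS and 1.66 and 1.72 CPM in CTRL (adjusted p = 0.092, edgeR).

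Further called genes with a matrix or stromal role were on no matrix list and were picked out after their values were seen. Ccn5, a matricellular protein of the CCN family, had 14.89 and 14.99 CPM in LPS and 3.56 and 3.11 CPM in CTRL (log2 fold change 2.16, adjusted p = 0.000737, edgeR). Tgm2, a transglutaminase that crosslinks proteins, had 33.0 and 36.1 CPM in LPS and 15.6 and 16.4 CPM in CTRL (log2 fold change 1.11, adjusted p = 0.00214, edgeR). Pdpn, the mucin-type membrane protein podoplanin, had 12.3 and 10.7 CPM in LPS and 3.31 and 3.77 CPM in CTRL (log2 fold change 1.70, adjusted p = 0.00184, edgeR). Each of these 3 was called under every alternative, although Tgm2 shares 370 exonic bases with Rprd1b on the opposite strand. Igfbp4, which binds insulin-like growth factors, rose on the list of growth and niche factors (33.9 and 37.8 CPM in LPS, 14.1 and 16.1 CPM in CTRL, log2 fold change 1.25, adjusted p = 0.00222, edgeR).

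**Figure D2:**
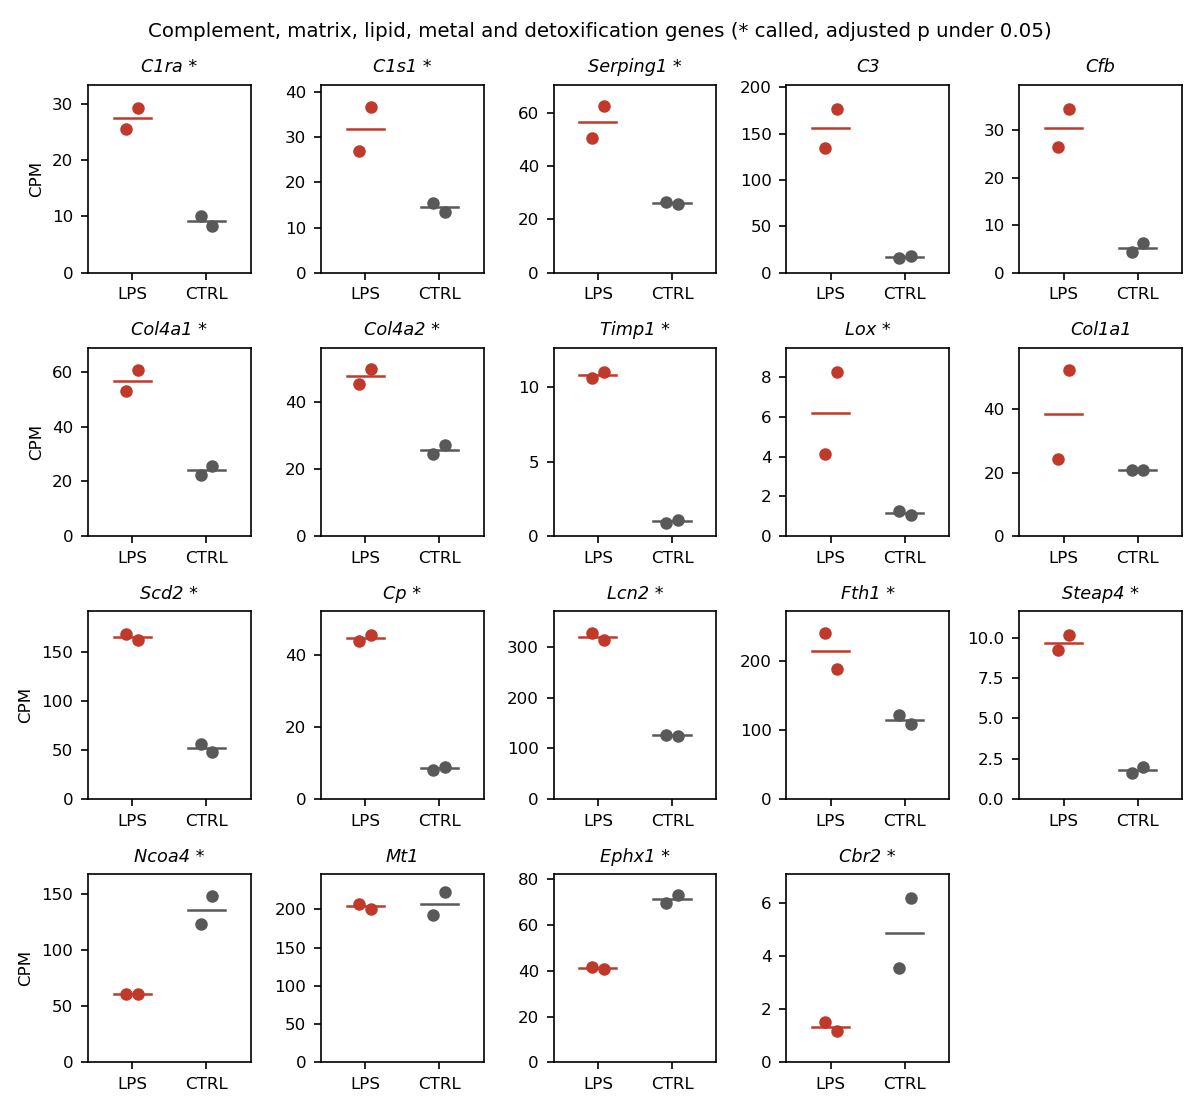
CPM of 19 genes of complement, matrix, lipid, metal and detoxification function in each LPS (red) and CTRL (grey) library; points are libraries, bars are means of 2, axes start at 0 and an asterisk marks an adjusted p under 0.05. C3, Cfb, Col1a1 and Mt1 are the panels without an asterisk, and in Col1a1 only LPS 2 is clearly above CTRL.

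Lipid genes gave a single strong change. Stearoyl-CoA desaturases put the first double bond into saturated fatty acids, and Scd2 is one of the mouse family. Scd2 had 167.9 and 162.1 CPM in LPS libraries, against 55.7 and 47.8 CPM in CTRL libraries. The groups were far apart, and the log2 fold change was 1.67 (SE 0.09, adjusted p = 1.64e-05, edgeR). In the other 4 libraries, all from mice that had also received LPS, Scd2 lay between 46.06 and 49.95 CPM. These values were near those of the CTRL libraries, the lowest of them below both.

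The rest of the fatty acid list did not follow Scd2. Scd1 had 6.94 and 10.2 CPM in LPS and 9.30 and 12.7 CPM in CTRL, and Fasn, the fatty acid synthase, had 101 and 94.8 CPM in LPS and 77.2 and 96.3 CPM in CTRL; in both the groups overlapped. Fads2 and Fads1, the desaturases that make polyunsaturated fatty acids, had lower values in LPS without passing: Fads2 had 91.5 and 76.0 CPM in LPS and 103 and 138 CPM in CTRL (log2 fold change -0.52, adjusted p = 0.272, edgeR), and Fads1 averaged 34.7 ± 4.45 CPM in LPS and 47.8 ± 9.21 CPM in CTRL (SD, n = 2 each; log2 fold change -0.46, adjusted p from edgeR's model 0.335). Of 22 genes on the list, 1 rose, none fell and the median was 0.13.

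Of 32 genes tested for lipid uptake, lipoproteins and storage, none was called, 18 (56.2%) were separated upward and 4 downward, and the median log2 fold change was 0.35. The droplet coat gene Plin2 had 51.6 and 47.9 CPM in LPS and 37.22 and 39.95 CPM in CTRL (adjusted p = 0.21, edgeR). Lpl, the lipoprotein lipase, had 3.35 and 3.12 CPM in LPS and 3.60 and 4.88 CPM in CTRL (log2 fold change -0.39, adjusted p = 0.796, edgeR). None of 22 cholesterol synthesis genes was called, and their median was 0.05.

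Iron and copper genes changed in both directions. Cp encodes ceruloplasmin, the copper-carrying ferroxidase, and had 43.9 and 45.7 CPM in LPS libraries, against 8.21 and 9.03 CPM in CTRL libraries. The replicates were close and the groups far apart (log2 fold change 2.38, SE 0.12, adjusted p = 1.64e-05, edgeR). Lcn2, the lipocalin that binds bacterial iron carriers, had 327 and 314 CPM in LPS libraries, against 127 and 125 CPM in CTRL libraries, and rose by a log2 fold change of 1.35 (SE 0.12, adjusted p = 0.00218, edgeR). Lcn2 was thus already abundant in CTRL testis.

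Steap4, a membrane metalloreductase for iron and copper, had 9.23 and 10.2 CPM in LPS libraries, against 1.61 and 2.02 CPM in CTRL libraries. It rose by a log2 fold change of 2.42 (SE 0.35, adjusted p = 0.0232, edgeR), but its call ended without any 1 of the 4 libraries, with adjusted p = 0.0582 without LPS 1, 0.0967 without LPS 2, 0.198 without CTRL 1 and 0.126 without CTRL 2. Fth1, the heavy chain of the iron store ferritin, had 240 and 188 CPM in LPS libraries, against 121 and 109 CPM in CTRL libraries. It rose by a log2 fold change of 0.90 (SE 0.11, adjusted p = 0.00739, edgeR), and the adjusted p was 0.0592 without CTRL 2 and 0.0548 with the LPS and CTRL libraries alone. The ferritin light chain Ftl1 showed no difference of this size, with 67.3 and 57.6 CPM in LPS and 63.1 and 69.3 CPM in CTRL and overlapping groups.

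Ncoa4, the receptor that carries ferritin to lysosomes for breakdown, fell. It had 60.9 and 60.6 CPM in LPS libraries, against 123 and 148 CPM in CTRL libraries (log2 fold change -1.16, SE 0.10, adjusted p = 0.000515, edgeR). Its level was 60.7 to 67.5 CPM in the other 4 libraries, so the CTRL libraries stood apart from all 6 libraries of LPS-treated mice. The iron exporter Slc40a1 was low and overlapping, at 1.67 and 1.28 CPM in LPS and 1.84 and 1.12 CPM in CTRL, and the transferrin receptor Tfrc was at 20.1 and 14.0 CPM in LPS and 15.3 and 15.2 CPM in CTRL. Of 28 iron genes tested, 3 rose (Lcn2, Steap4 and Fth1), Ncoa4 fell and 24 were not called; the median was 0.16. Of 16 copper genes, Cp and Lox rose and the median was 0.05.

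Zinc and metallothionein genes showed no called change. Metallothioneins bind zinc and copper and are classic acute phase genes of liver. Mt1 had 208 and 201 CPM in LPS libraries, against 192 and 222 CPM in CTRL libraries, and Mt2 had 51.0 and 53.8 CPM in LPS libraries, against 47.2 and 56.6 CPM in CTRL libraries. In both genes the CTRL libraries lay on either side of the LPS libraries, with log2 fold changes of -0.02 for Mt1 (SE 0.08) and 0.015 for Mt2 (SE 0.10), whose sign turned under some alternatives. None of 24 genes on the list was called, 2 were separated upward and 6 downward, and the median was -0.015.

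Promoter windows of 6 higher genes of the iron, copper and C1 protease groups are shown because each holds the letters TTGCNNAA, a form of the C/EBP motif, on 1 strand or the other. They were chosen for that match. Of the other called genes of these groups, Ncoa4 has no match in its windows, and Lox is named only. Capitals mark the matches. The sequences are from RefSeq (GRCm38.p6), 5′ to 3′ on the gene's strand, from 250 bases before to 50 after the annotated start. Cp, Fth1 and C1s1 have 2 windows each in that table, of which the window with the match is shown and the other has none. The windows are chr3:19956999-19957298 (plus) for Cp, chr2:32387690-32387989 (minus) for Lcn2, chr5:7960222-7960521 (plus) for Steap4, chr19:9982396-9982695 (plus) for Fth1, chr6:124512371-124512670 (plus) for C1ra and chr6:124542310-124542609 (minus) for C1s1.
Cp: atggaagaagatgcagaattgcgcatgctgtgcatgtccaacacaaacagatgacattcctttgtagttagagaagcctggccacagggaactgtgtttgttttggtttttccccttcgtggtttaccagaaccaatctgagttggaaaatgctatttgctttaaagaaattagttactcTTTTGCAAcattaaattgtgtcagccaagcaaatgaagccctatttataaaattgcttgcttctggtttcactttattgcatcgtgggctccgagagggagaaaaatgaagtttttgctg
Lcn2: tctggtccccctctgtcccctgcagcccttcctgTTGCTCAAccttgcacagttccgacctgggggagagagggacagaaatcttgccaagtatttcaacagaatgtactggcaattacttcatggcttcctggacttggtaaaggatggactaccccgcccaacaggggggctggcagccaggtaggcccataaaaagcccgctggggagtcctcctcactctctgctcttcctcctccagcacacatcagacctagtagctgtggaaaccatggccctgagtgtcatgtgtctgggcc
Steap4: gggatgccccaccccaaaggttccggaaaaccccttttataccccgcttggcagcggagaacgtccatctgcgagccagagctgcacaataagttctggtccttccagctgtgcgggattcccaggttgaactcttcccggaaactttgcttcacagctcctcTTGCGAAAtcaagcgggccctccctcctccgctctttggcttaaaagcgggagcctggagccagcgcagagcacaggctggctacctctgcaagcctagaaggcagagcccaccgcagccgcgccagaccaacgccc
Fth1: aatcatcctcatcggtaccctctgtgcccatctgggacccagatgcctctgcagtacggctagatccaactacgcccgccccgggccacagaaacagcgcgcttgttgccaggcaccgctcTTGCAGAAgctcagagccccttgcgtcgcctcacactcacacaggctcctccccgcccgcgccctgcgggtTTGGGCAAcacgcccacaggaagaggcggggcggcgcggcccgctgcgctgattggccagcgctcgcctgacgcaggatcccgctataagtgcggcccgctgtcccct
C1ra: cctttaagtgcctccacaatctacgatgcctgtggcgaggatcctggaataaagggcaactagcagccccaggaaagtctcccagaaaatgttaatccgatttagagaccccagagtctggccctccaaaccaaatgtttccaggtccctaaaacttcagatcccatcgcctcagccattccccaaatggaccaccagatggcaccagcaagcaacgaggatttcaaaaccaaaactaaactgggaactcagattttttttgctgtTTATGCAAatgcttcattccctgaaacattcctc
C1s1: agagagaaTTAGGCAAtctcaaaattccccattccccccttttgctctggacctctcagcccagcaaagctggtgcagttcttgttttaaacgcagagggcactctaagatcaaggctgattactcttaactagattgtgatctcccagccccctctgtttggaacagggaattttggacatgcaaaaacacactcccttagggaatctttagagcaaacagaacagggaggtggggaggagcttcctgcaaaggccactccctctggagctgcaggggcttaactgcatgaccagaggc

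The first match began 70 bases before the start in Cp, 216 in Lcn2, 87 in Steap4, 129 in Fth1 and 242 in C1s1, and it began 16 bases after the start in C1ra. Of the 78 called genes, 60 had a window, and the 52 higher ones had 63 windows. TTGCNNAA was found on either strand in 10 of these 63 (15.9%), against 10.8% of all 32851 windows. The same counts were 14 (22.2%) against 8.46% for the NF-kB motif, 9 (14.3%) against 8.3% for the STAT motif TTCNNNGAA, and 4 (6.35%) against 3.44% for the interferon-stimulated response element. They were 14 (22.2%) against 25.7% for the metal response element (TGCACNC or TGCGCNC), and 0 against 1.63% for the CArG box. Several higher genes are paralogues, whose promoters may be alike but were not compared. Some genes have more than 1 window, and motifs can overlap, so the shares describe these windows and no test was made.

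Among detoxification genes, 1 fell. Ephx1, the microsomal epoxide hydrolase, had 41.7 and 40.9 CPM in LPS libraries, against 69.4 and 73.0 CPM in CTRL libraries (log2 fold change -0.79, SE 0.08, adjusted p = 0.00199, edgeR). The groups were well separated. Cbr2, a carbonyl reductase on no list, had 1.53 and 1.17 CPM in LPS libraries, against 3.55 and 6.19 CPM in CTRL libraries (log2 fold change -1.85, SE 0.32, adjusted p = 0.0476, edgeR), a call close to the threshold that ended without LPS 1 (0.0988), LPS 2 (0.237), CTRL 2 (0.232), LPS+DHEA 1 (0.0607) or LPS+DHEA 2 (0.0623), and with the LPS and CTRL libraries alone (0.107). Gstm1, a glutathione transferase, had 126 and 154 CPM in LPS and 204 and 194 CPM in CTRL, and Cyp1b1, a cytochrome P450, had 22.9 and 28.0 CPM in LPS and 15.7 and 13.9 CPM in CTRL; their adjusted p values were 0.0645 and 0.0581 (edgeR). Of 36 genes on the list 1 fell, none rose and the median was 0.06.

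**Figure D3:**
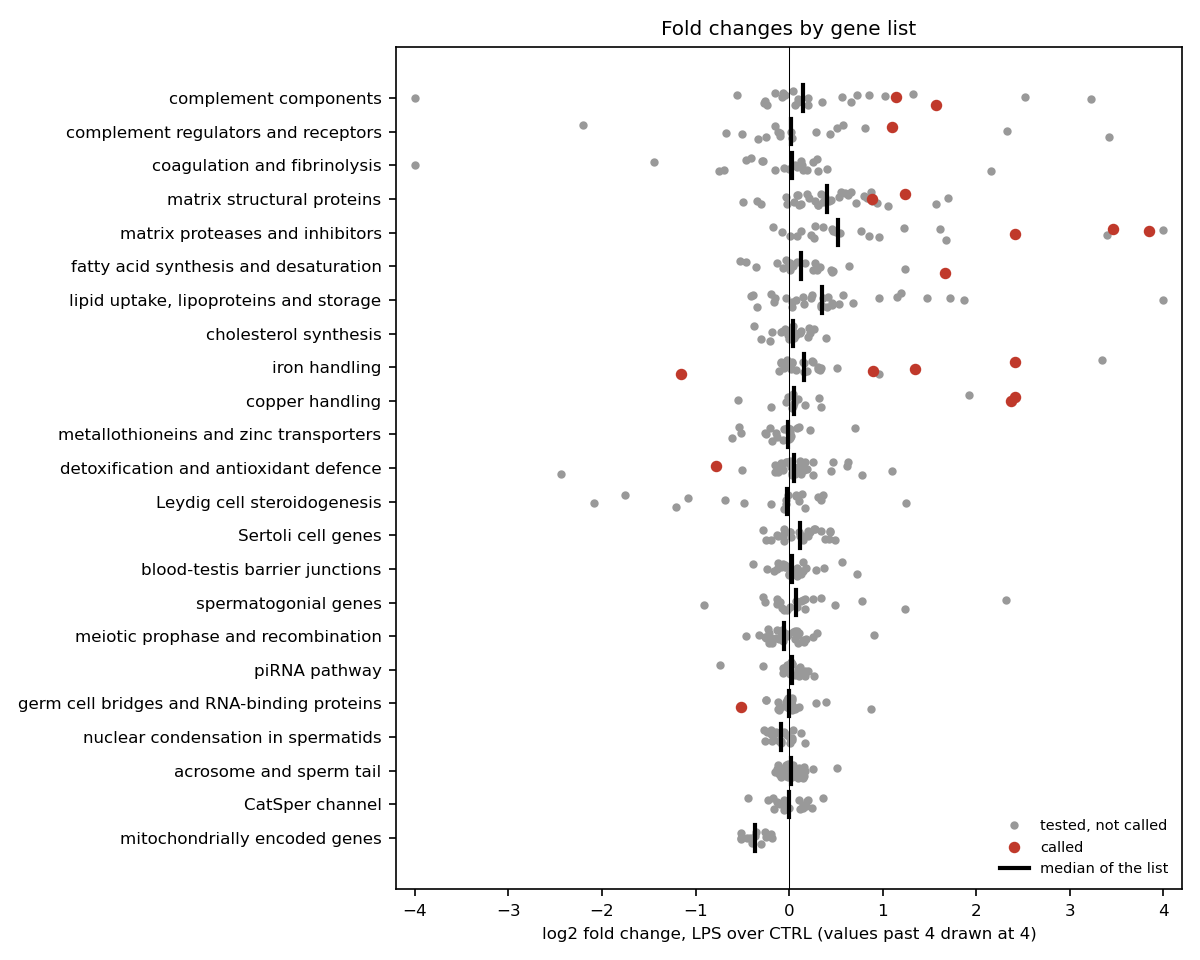
Log2 fold change of LPS over CTRL for each tested member of 23 gene lists; grey points were not called, red points were called, and black bars are the list medians. The matrix lists have medians of 0.41 and 0.52, the germ cell lists have medians from -0.09 to 0.07, and the mitochondrial list lies wholly below 0.

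Genes of the germ cell lists changed little. Of the germ cell lists, spermatogonial genes had a median log2 fold change of 0.07 over 23 tested, meiotic prophase and recombination -0.05 over 34, the piRNA pathway 0.03 over 24, acrosome and sperm tail 0.02 over 38 and the CatSper channel of the sperm tail 0.004 over 19. No member of these 5 lists was called. In a bulk sample, fewer cells of a type and less RNA per cell cannot be told apart.

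A single member of the germ cell lists was called, while called genes on no list were not assigned to cell types. Rbm44, which encodes an RNA-binding protein of the bridges that join germ cells in mice, had 60.1 and 59.2 CPM in LPS libraries, against 84.4 and 85.7 CPM in CTRL libraries. It fell by 0.51 on the log2 scale (SE 0.09, adjusted p = 0.0409, edgeR), with close replicates. The call ended without any 1 of the 4 libraries, at adjusted p = 0.129 without LPS 1, 0.18 without LPS 2, 0.137 without CTRL 1 and 0.16 without CTRL 2, and it was 0.0594 with the LPS and CTRL libraries alone. In the LPS+DHEA and LPS+DHEA+Nb libraries Rbm44 lay at 80.8 to 94.5 CPM. The other 23 genes of bridges and germ cell RNA-binding proteins were not called, and the list's median was 0.001.

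Late spermatid genes, whose products pack the sperm nucleus, were slightly lower in LPS without passing. Tnp1, a transition protein, had 1578 and 1675 CPM in LPS libraries, against 1973 and 1949 CPM in CTRL libraries. The groups were apart, with a log2 fold change of -0.27 (SE 0.06) and an adjusted p of 0.116 (edgeR). Prm1, a protamine, had 2382 and 2523 CPM in LPS libraries, against 2912 and 2937 CPM in CTRL libraries (log2 fold change -0.25, SE 0.07, adjusted p = 0.323, edgeR). Of 21 nuclear condensation genes, 7 (33.3%) were separated downward and 1 upward, and the median was -0.09; these transcripts are among the most abundant in the tissue.

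Enzymes of androgen synthesis in Leydig cells had lower values in LPS, with a call that depended on the method and on the libraries kept. Cyp17a1, the enzyme that turns progestogens into androgens, had 44.2 and 17.4 CPM in LPS libraries, against 106 and 156 CPM in CTRL libraries. Hsd3b1, the steroid dehydrogenase one step earlier, had 12.2 and 22.9 CPM in LPS libraries, against 67.3 and 50.8 CPM in CTRL libraries. Both groups were apart, but the LPS replicates were far from each other and neither passed edgeR's test (log2 fold change -2.08, SE 0.51, adjusted p = 0.491 for Cyp17a1; -1.75, SE 0.32, adjusted p = 0.218 for Hsd3b1, edgeR). DESeq2 and limma-voom called both genes, and so did edgeR without LPS 1; Hsd3b1 was also called without LPS 2 and without robust shrinkage. Star, which brings cholesterol into mitochondria, had 34.3 and 29.2 CPM in LPS and 25.9 and 33.1 CPM in CTRL. Of 20 steroidogenesis genes none was called, 6 were separated downward (30%) and 5 upward, and the median was -0.02. The 8 Leydig cell markers, all of them members of that list, had a median of -0.88, with 5 separated downward (62.5%), 1 upward and none called; they summed to 766 and 737 CPM in LPS and 904 and 1052 CPM in CTRL.

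Sertoli cell genes and the barrier they form gave no call: 27 Sertoli genes had a median of 0.11 and 24 junction genes a median of 0.03. The transcription factor Dmrt1 had the smallest p among the Sertoli genes, at 25.1 and 23.2 CPM in LPS and 16.9 and 17.4 CPM in CTRL (log2 fold change 0.50, adjusted p = 0.136, edgeR). All 13 mitochondrially encoded genes had negative values, with a median of -0.36, 10 of them separated downward and none called; their transcripts are cut from shared precursors, and CTRL 1 had the highest sum (8748 and 9501 CPM in LPS, 12330 and 9723 CPM in CTRL).

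**Figure D4:**
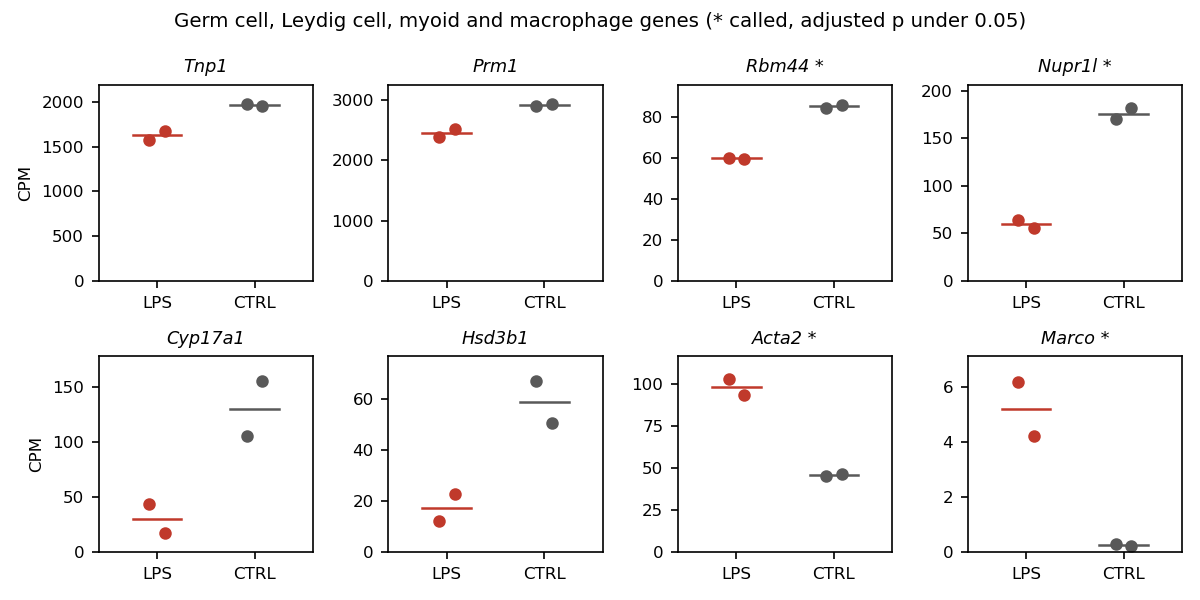
CPM of 8 genes of germ cells, Leydig cells, peritubular myoid cells and macrophages, with Nupr1l, in each LPS (red) and CTRL (grey) library; points are libraries, bars are means of 2, axes start at 0 and an asterisk marks an adjusted p under 0.05. Rbm44, Nupr1l, Acta2 and Marco were called, while Tnp1, Prm1, Cyp17a1 and Hsd3b1 had lower values in LPS without passing edgeR's test.

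Acta2, the smooth muscle actin of peritubular myoid cells and vessel walls, had 103 and 93.6 CPM in LPS libraries, against 45.3 and 46.7 CPM in CTRL libraries, and was the 1 called gene of 12 myoid and smooth muscle markers (log2 fold change 1.096, SE 0.10, adjusted p = 0.000737, edgeR). These 12 had a median of 0.48, 10 were separated upward, and they summed to 615 and 588 CPM in LPS and 512 and 502 CPM in CTRL. The 16 endothelial markers had a median of 0.44, 7 of them separated upward (43.8%), none downward and none called, with sums of 164 and 190 CPM in LPS and 138 and 118 CPM in CTRL. The part of these cells in the higher values of matrix and complement genes was not tested.

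Macrophage markers did not rise as a group: 20 markers had a median of 0.05 and sums of 133 and 147 CPM in LPS and 164 and 133 CPM in CTRL. Marco, a scavenger receptor, was the only marker called (log2 fold change 4.31, adjusted p = 0.0186, edgeR). It had 6.19 and 4.22 CPM in LPS and 0.304 and 0.219 CPM in CTRL. Its call ended without CTRL 1, CTRL 2 or LPS+DHEA 2, with log2 fold changes of 4.56, 4.09 and 4.31. The call of Marco also ended with limma-voom (adjusted p = 0.332) and with the replicate block (adjusted p = 0.0875, edgeR). Of the 20 markers, 7 (35%) were separated upward and 4 (20%) downward. Itgam and Cd14 had log2 fold changes of 3.42 and 1.22 and were not called. Cx3cr1 and Csf1r, receptors of resident macrophages, had log2 fold changes of -1.35 and -0.90 and were not called. Of the neutrophil markers, 11 of 16 could be tested, and Lcn2, S100a8, Fpr1 and Fpr2 were called. All 11 had positive values, against 49.6% of all genes tested. Some markers had 0 counts in both CTRL libraries, among them S100a8, Fpr1, Fpr2 and Cxcr2. They passed the count filter only through libraries of LPS-treated mice, so a fall could not have been seen in them. S100a8, a subunit of calprotectin, had 81 and 49 counts in LPS libraries and 0 in both CTRL libraries, at least 21.5-fold higher against a floor of 3 counts per library. Fpr2 and Fpr1, receptors for bacterial peptides, were at least 15.4-fold and 14.6-fold higher on the same basis, at about 1 CPM or less, while Ly6g and Elane had 0 counts in all 4 libraries. These calls also rested on single libraries and on the method. The call of S100a8 ended without CTRL 1 or CTRL 2, and that of Fpr2 without CTRL 1, CTRL 2 or LPS 2. That of Fpr1 ended without any 1 of the 4. With counts divided by 4, the adjusted p was 0.111 for S100a8, 0.0565 for Fpr2 and 0.114 for Fpr1 (edgeR). With limma-voom it was 0.564, 0.387 and 0.533. The part of incoming leukocytes in the higher immune gene values was not tested.

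Of 20 acute phase genes tested, 6 rose, among them Saa3 with 114 and 161 CPM in LPS and 0.895 and 1.49 CPM in CTRL; 5 of 21 MHC class I and immunoproteasome genes, 2 of 40 interferon-stimulated genes, 3 of 27 chemokines and cytokines and 3 of 30 NF-kB and STAT3 feedback genes rose, and none on these lists fell. Reads of the serum amyloid, MHC, Ifitm and Fpr genes can match near-identical copies, and the sources used here do not say how such reads were counted. Over all genes tested, 0.257% were called higher. The lists share members, so their calls are not separate sets. The 6 acute phase calls include Lcn2, Cp and Serpina3n, counted above on the iron, copper and matrix lists. In all, 36 of the 78 called genes stood on a list by function and 42 on none.

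The genes outside the lists, named here after their values were seen, included the membrane proteins Tmem176a and Tmem176b, neighbours on chromosome 6 with 577 bases between their starts. Tmem176b had 58.6 and 66.0 CPM in LPS and 27.7 and 25.5 CPM in CTRL, and Tmem176a had 35.6 and 36.7 CPM in LPS and 17.7 and 18.1 CPM in CTRL (adjusted p = 0.000515 and 0.00136, edgeR); the pair overlap by 81 exonic bases on opposite strands. Ldhd, the mitochondrial D-lactate dehydrogenase, had 10.04 and 12.24 CPM in LPS and 4.55 and 4.42 CPM in CTRL (adjusted p = 0.0145, edgeR; 0.0792 without CTRL 1, 0.092 without CTRL 2 and 0.0837 without LPS 2), and overlaps Znrf1 by 2246 exonic bases on the opposite strand.

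Nupr1l, related to the stress regulator Nupr1, was the lower gene with the smallest p. It had 63.6 and 55.2 CPM in LPS libraries, against 171 and 182 CPM in CTRL libraries (log2 fold change -1.57, SE 0.09, adjusted p = 1.77e-05, edgeR). In the other 4 libraries it lay at 175 to 195 CPM, so that LPS 1 and LPS 2 stood below all 6 others. Counted over all called genes, the LPS libraries lay above all 6 others in 45 of the 68 higher genes and below all 6 in 6 of the 10 lower genes. The CTRL libraries stood below all 6 in 53 of the higher genes and above all 6 in 4 of the lower ones. These genes were called on the difference between LPS and CTRL, which favours such positions. The same share over all genes tested was not counted, and the background given for separated genes does not cover it.

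**Figure D5:**
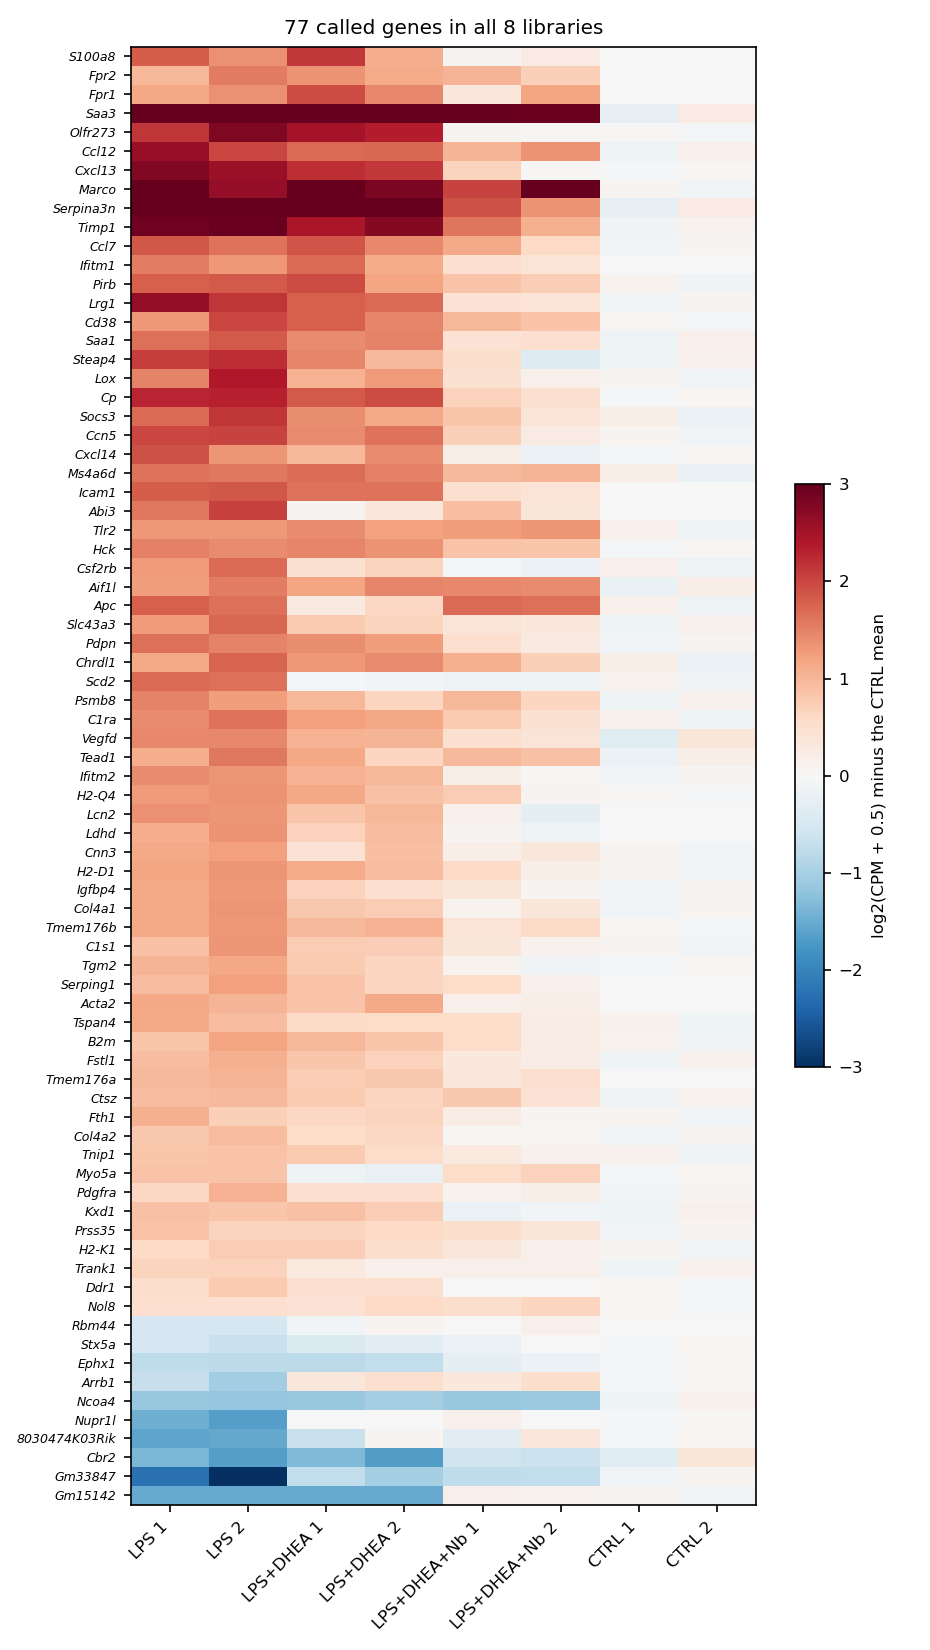
Log2(CPM + 0.5) minus the CTRL mean of 77 of the 78 called genes (rows, ordered by fold change) in all 8 libraries (columns), from blue (lower than CTRL) to red (higher). Scd2 and Nupr1l differ from CTRL in LPS 1 and LPS 2 but not in the 4 libraries that had DHEA as well, whereas Ncoa4 is lower in all 6 libraries of LPS-treated mice.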

How the data were processed

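RNA was sequenced from testis, and all 8 libraries of the series entered the model. Per the submitters' processing notes, reads were processed with HISAT (no version given) and featureCounts 1.5.0-p3 on GRCm38, and per the labels' protocols the kit was stranded. The sources used here state neither the strand setting nor how reads with several matches were treated. The deposited values are estimated counts per gene: all are whole numbers, but 33.5% of values from 1 to 40 are multiples of 4, against 25% of those from 1000 to 10000, so they may not be plain read counts, and dividing them by 4 was tried as an alternative. They were used without rounding.

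Genes were filtered with filterByExpr (minimum count 10, minimum total 15), scaled by TMM and fitted with edgeR 4.0.16 (quasi-likelihood, robust) in R 4.3.3, with a mean for each of 4 groups, which left 4 residual degrees of freedom; a gene was called at a Benjamini-Hochberg adjusted p under 0.05. The scripts were tested on simulated data. DESeq2 1.42.0 and limma-voom 3.58.1, other scalings and filters, fewer libraries and the replicate block were alternatives. Symbols and positions were matched for 55154 and 55240 of 55421 identifiers. "Separated" means that both LPS libraries lay on one side of both CTRL libraries.

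The gene lists and tests were chosen with earlier results of these data known. The text names part of the following: up to 15 called genes in each direction with the largest fold change and at least 1 CPM, every called list member with up to 4 others of smallest p per list, and a fixed set. C1qa, C1qb, C1qc, Col1a2, Col3a1, Fasn, Scd1, Ftl1, Tfrc, Star, Insl3, Lama2, Tnc and Thbs1 were named after their values were seen, as were those so described in the text. Floors of 3 counts cover counting error only. A few results are not reported here.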

Additional observations from a re-analysis of the deposited data

How the results depend on the processing

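The 78 calls (68 higher, 10 lower) became 140 (117 and 23) with no filter on low counts, 291 (225 and 66) with DESeq2, 49 (43 and 6) with limma-voom, and 122 (105 and 17) at an adjusted p of 0.10. With only the LPS and CTRL libraries 73 genes were called (56 and 17), 46 of them among the 78, and without robust shrinkage 52 were called (46 and 6). Leaving out 1 library at a time gave 66 to 118 calls, 51 to 97 higher and 12 to 40 lower. The cause of these moves was not tested, other than the looser threshold. The fit with the replicate block called 62 genes (55 higher, 7 lower), 58 of them among the 78. Differences between replicates 1 and 2 correlated over genes at 0.017 between LPS and CTRL. That value covers no other libraries, and whether the replicate numbers mark a batch or only name samples was not tested. Of the results for called genes under all alternatives, 1166 kept direction and call and 314 lost the call; none reversed.

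Fold changes of genes not called turned sign in 12 cases: with library size alone for Mt1 (0.002) and Slc40a1 (0.016), with limma-voom for Slc40a1 (0.028), with the block for Slc40a1 (0.026), and on leaving out 1 library for 5 genes, whose values then ranged from -0.584 to 0.004 (Hormad1), -0.122 to 0.087 (Mt1), -0.112 to 0.152 (Mt2), -0.318 to 0.387 (Slc40a1) and -0.061 to 1.327 (Ros1). The median of all genes was 0.021 with library size alone, against -0.002 with TMM. With 2 libraries a group, calls of genes that vary between libraries depended on the method and on the libraries kept. Cyp17a1 and Hsd3b1 were called by DESeq2 and limma-voom and not by the main edgeR fit. With all 8 libraries, edgeR without robust shrinkage called Hsd3b1. The edgeR calls of both genes also changed when an LPS library was left out, as given above.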

Other observations

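Scd2 and Nupr1l, chosen after their values were seen, had nearly the same summed level in every library. The sum was 232 and 217 CPM in LPS, 226 and 223 CPM in LPS+DHEA, 241 and 223 CPM in LPS+DHEA+Nb, and 226 and 229 CPM in CTRL. The genes lie on different chromosomes, 19 and 5, and no test was made.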
